A study of Ictidomys tridecemlineatus with 5 samples.

Results

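The keratin family was read in 2 tissue tables of the ground squirrel Ictidomys tridecemlineatus, one for whole eye and one for retina. Its members were the transcripts whose best Swiss-Prot hit carried a type I or type II keratin name, grouped by the name before the species code. This gave 31 keratin names of 15938 protein names in all, 14 of type I and 17 of type II. RNA sequencing covered 2 eye libraries and 3 retina libraries of wild type animals of the strain given as WT, and RNA of 4 squirrels was pooled for library preparation. The labels give neither age nor season of collection. Each table holds 1 value per transcript and tissue, so differences between the tissues have no replicate check and no test was run.

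Keratins are the intermediate filament proteins of epithelial cells. A filament is built from pairs of 1 type I and 1 type II keratin, and the pair that a cell makes marks the kind of epithelium and the layer it sits in. In the eye, the cornea is known for the pair of keratins 3 and 12, basal cells of stratified epithelia for keratins 5 and 14, the upper layers of mucosa such as conjunctiva for keratins 4 and 13, and single-layered epithelia for keratins 8 and 18. Neural retina is not an epithelium of this kind. In bulk tissue, fewer cells of a type and less RNA per cell cannot be told apart.

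Whole eye held a large and varied set of keratins, and retina held a short list of low ones. The eye table listed 30 of the 31 names on 1222 transcripts, with levels from 0.481 to 2594 RPKM (reads per kilobase of transcript, scaled to sequencing depth). In retina the list was 14 names on 21 transcripts, from 0.295 to 22.7 RPKM. A total of 13 names stood in both tables, 17 in the eye table only and 1, the hair keratin KRT83, in the retina table only (4.46% of all retina names were). Among all names of the eye table, 8.75% were in that table only, and among names at 10 RPKM or more in eye, 2.84%. Of the 26 keratin names at 10 RPKM or more in eye, 15 were in the eye table only. No table lists a value of 0, so a name that is not in a table has no fold difference.

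The length of the transcript behind each level mattered for this family. Of the keratin transcripts in eye, 1157 (94.7%) were under 200 bases, against 46.0% of all eye transcripts with a Swiss-Prot hit. In retina none of the 21 was that short. For 11 of the 30 eye names the highest transcript was under 200 bases, and 4 names (K1C16, K2CB, K22O and KRT85) had no longer transcript in eye. The level of a name is therefore given both on its highest transcript, the measure chosen for the comparison, and on its longest transcript, a measure added after the lengths had been seen. In both tables all values, multiplied by transcript length, came out as multiples of a fixed step to within 0.01 of the step, which gives the reads behind a value if the step is 1 read. On that scale the eye table stands for 264219334 reads and the retina table for 355988270, but the reads over all transcripts add up to 5077626712 and 3745035688, so under that reading a read was counted on more than 1 transcript. The 95% intervals printed here treat those reads as independent Poisson counts and hold no error beyond counting.

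**Figure D1:**
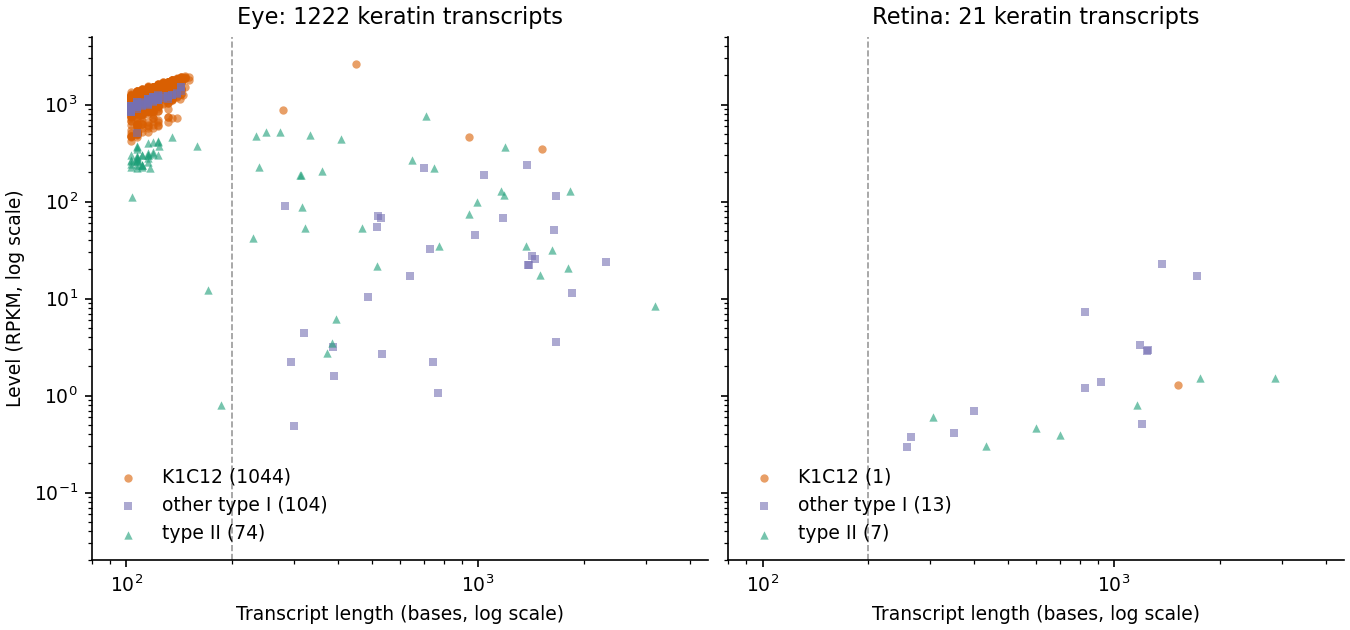
Level in RPKM against transcript length in bases for every keratin transcript of eye (left) and retina (right), both axes on log scales, with K1C12, the other type I and the type II names in separate symbols and a dashed line at 200 bases. In eye 1157 of 1222 points lie left of the line, while all 21 retina points lie right of it and at or below 22.7 RPKM.

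The corneal keratin 12 (K1C12, gene Krt12), the type I partner of corneal epithelium, had the most transcripts of the family in eye and the highest single one. It held 1044 transcripts, 85.4% of the keratin transcripts, and ranked as the 2nd of all 15287 eye names by transcript number. Its highest transcript stood at 2594 RPKM (95% counting interval 2585 to 2603) on 450 bases, which ranked 24th among the names by level. Its longest transcript, of 1522 bases, was at 348 RPKM (347 to 350), and further transcripts of 278 and 942 bases were at 885 and 462 RPKM. The remaining 1040 were under 200 bases, with a median length of 119 bases and levels from 424 to 1949 RPKM around a median of 1320. All K1C12 transcripts thus lay at 348 RPKM or above. By the longest transcript, K1C16 and K2CB, which had short transcripts only, and K2C3 stood above K1C12. With transcripts of 500 bases or more K2C3 was the highest keratin and K1C12 followed it.

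Retina had 1 transcript of K1C12, with nearly the same length as the longest one of eye, 1520 bases, at 1.29 RPKM (1.19 to 1.39) from 697 reads. On these transcripts of like length the level in eye was 270 times that in retina (counting interval 251 to 291). Against the highest eye transcript the ratio was 2014 (1870 to 2169). Both ratios place K1C12 far above its retina level.

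The type II partner of the cornea, keratin 3 (K2C3, gene Krt3), was listed in eye only. It held 19 transcripts, the highest at 770 RPKM on 712 bases and the longest at 369 RPKM on 1192 bases. K2C3 and K1C12 therefore had nearly equal levels on their longest transcripts, a ratio of 1.06, but 54.9 times as many transcripts carried the name K1C12. Among the 184 eye names whose longest transcript lay between 200 and 600 RPKM, a band chosen after seeing the data, the number of transcripts ran from 1 to 1044 with a median of 5, and 39 names had 20 or more. K1C12 was the maximum of this band.

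With transcripts of 200 bases or more, the basal keratins K2C5 and K1C15 came next after K1C12 and K2C3. Keratin 5 (K2C5, gene Krt5), the type II keratin of basal layers, had 23 transcripts in eye. The highest was at 523 RPKM on 274 bases and the longest at 268 RPKM on 650 bases. Only 58.2% of this longest transcript aligned to the named protein, at 61% similarity. Of the 8 K2C5 transcripts of 200 bases or more, the lowest was at 189 RPKM. These transcripts may share reads, so they are not separate measurements, and 1 of 359 bases, at 206 RPKM, matched at 56% similarity. In retina K2C5 was at 0.299 RPKM on 432 bases, from 46 reads. Its type I partner keratin 14 (K1C14) was lower, with 3 eye transcripts, the highest at 67.3 RPKM on 1176 bases and the longest at 51.3 RPKM on 1648 bases, and was not listed in retina.

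Keratin 15 (K1C15), a basal keratin that is also used to mark the limbus at the corneal edge, had mostly long transcripts. Its 1375-base transcript was at 236 RPKM in eye, transcripts of 700 and 1040 bases were at 222 and 190 RPKM, and those of 521 and 530 bases at 71.3 and 68.3 RPKM. The highest value, 835 RPKM, belonged to a single transcript of 103 bases. Retina had 1 transcript of 264 bases at 0.372 RPKM, from 35 reads. Among the basal keratins, K2C5 and K1C15 were thus the high ones and K1C14 the low one, on the highest as well as on the longest transcripts.

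The mucosal pair stood in the eye table only. Keratin 4 (K2C4, gene Krt4) had 11 transcripts, the highest at 417 RPKM on 123 bases and the longest at 129 RPKM on 1826 bases. Keratin 13 (K1C13) had 13, the highest at 1266 RPKM on 123 bases and the longest at 114 RPKM on 1670 bases. On full-sized transcripts the partners differed by 1.13 times, and on the highest by 3.04 times in the other direction.

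Keratins of single-layered epithelia were found in both tissues, at lower levels. Keratin 8 (K2C8, gene Krt8) had 1 transcript in each table, of 1806 bases at 20.7 RPKM in eye and of 1757 bases at 1.52 RPKM in retina. Its partner keratin 18 (K1C18, gene Krt18) was at 27.1 RPKM in eye on 1420 bases and at 3.36 RPKM in retina on 1185 bases, the highest of 3 transcripts in each tissue. The eye level was 13.6 times the retina level for K2C8 (counting interval 12.8 to 14.6) and 8.09 times for K1C18 (7.65 to 8.55). K1C18 was the higher member of the pair in both tissues, by 1.31 times in eye and 2.21 times in retina.

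Keratin 7 (K2C7, gene Krt7), found in ducts and other simple epithelia, had 5 transcripts in eye, the highest and longest at 74.4 RPKM on 943 bases, against 0.794 RPKM on 1160 bases in retina. Keratin 19 (K1C19, gene Krt19), a type I keratin of simple epithelia that conjunctiva also makes, had 26 transcripts in eye. Of these, 22 were under 200 bases and the highest was at 1298 RPKM on 139 bases. Its longest transcript, of 1395 bases, was at 22.4 RPKM in eye, and retina had 1.38 RPKM on 917 bases. K1C19 therefore ranked 3rd among keratins by the highest transcript, but on the longest transcript it stood close to K2C8 and K1C18.

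The epidermal keratins were at the level of the simple keratins once long transcripts were read. Keratin 1 (K2C1, gene Krt1), which the upper epidermis makes with keratin 10, had eye transcripts of 774 and 1370 bases at nearly equal levels, the longer at 34.6 RPKM, and none in retina. Keratin 10 (K1C10, gene Krt10) had 4 eye transcripts. One of 2318 bases was at 23.7 RPKM, and 3 of 107 to 131 bases lay between 942 and 1237 RPKM. In retina K1C10 was the highest keratin, at 22.7 RPKM on 1371 bases, 17.1 on 1717 bases and 0.510 on 1200 bases.

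K1C10 is the 1 keratin name at 10 RPKM or more in retina, and its partner K2C1 had no transcript there. On best-matching transcripts its eye level was 1.04 times that of retina (counting interval 1.02 to 1.07), and on longest transcripts 1.38 times (1.35 to 1.42). The alignment to the keratin covered 46.0% of the 1371-base retina transcript and 40.4% of the 2318-base eye transcript. K22O, a keratin named for oral epithelium, was listed in eye only, on 1 transcript of 104 bases at 113 RPKM.

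Keratins known from wounded epithelium and from skin appendages were listed in eye only. Keratin 6A (K2C6A, gene Krt6a) was at 98.7 RPKM on 995 bases, keratin 6C (K2C6C) at 87.2 RPKM on 316 bases and keratin 6B (K2C6B) at 42.1 RPKM on 229 bases, each on 1 transcript. Keratin 17 (K1C17) was at 45.3 RPKM on 982 bases, the higher of 2. Keratin 16 (K1C16) had 25 transcripts, all between 103 and 123 bases and between 503 and 1213 RPKM. The 3 keratin 6 names come from close relatives, and which of them this squirrel transcribes cannot be told apart from fragments of these lengths.

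The other keratins ran over the whole range. In eye K2C79 was at 31.4 RPKM on 1621 bases, K2C78 at 17.7 RPKM on 1499 bases and K1C23 at 11.5 RPKM on 1852 bases, each on 1 transcript and with none in retina. K2C80 was at 8.29 RPKM on 3180 bases in eye and 1.52 RPKM on 2871 bases in retina. The root sheath keratins of hair follicles were uneven: K2C74 was at 53.3 RPKM on 323 bases in eye and 0.465 RPKM on 598 bases in retina, whereas K1C27 was at 1.06 and 1.19 RPKM. These 6 names had 1 transcript in each table that listed them.

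Names at high levels without a long transcript at such a level need to be read with their length. K1C24 was at 1077 RPKM in eye on 115 bases, but at 3.59 RPKM on 1668 bases, and retina had 0.409 RPKM on 350 bases. K1C3, a frog keratin entry, had 15 short eye transcripts up to 1508 RPKM, while its 746-base transcript was at 2.22 RPKM with 16.9% of it aligned. In retina K1C3 was at 7.30 RPKM on 826 bases, with 15.3% aligned. K2CB, a bovine keratin entry, had 4 eye transcripts, the highest at 465 RPKM on 135 bases. The hair keratins KRT85 and KT33A in eye, at 0.794 and 0.481 RPKM, and KRT83 in retina, at 0.388 RPKM on 702 bases, were under 1 RPKM.

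Of the 31 names, 18 had a gene symbol in the RefSeq annotation of this squirrel (assembly mIctTri1.hap1) and 13 did not, among them K1C13, K1C14, K1C15, K1C16 and K1C17. The annotation places 16 Krt symbols, all of type I keratins or relatives, on 1 chromosome, where Krt10 follows Krt12 in the order of these symbols. Another chromosome holds 18, and in their order the type I gene Krt18 and its partner Krt8 stand at one end. Genes under other symbols were left out of both orders, so direct neighbours are not shown. Close keratin relatives can share reads and best hits, so the names of short fragments are uncertain.

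**Figure D2:**
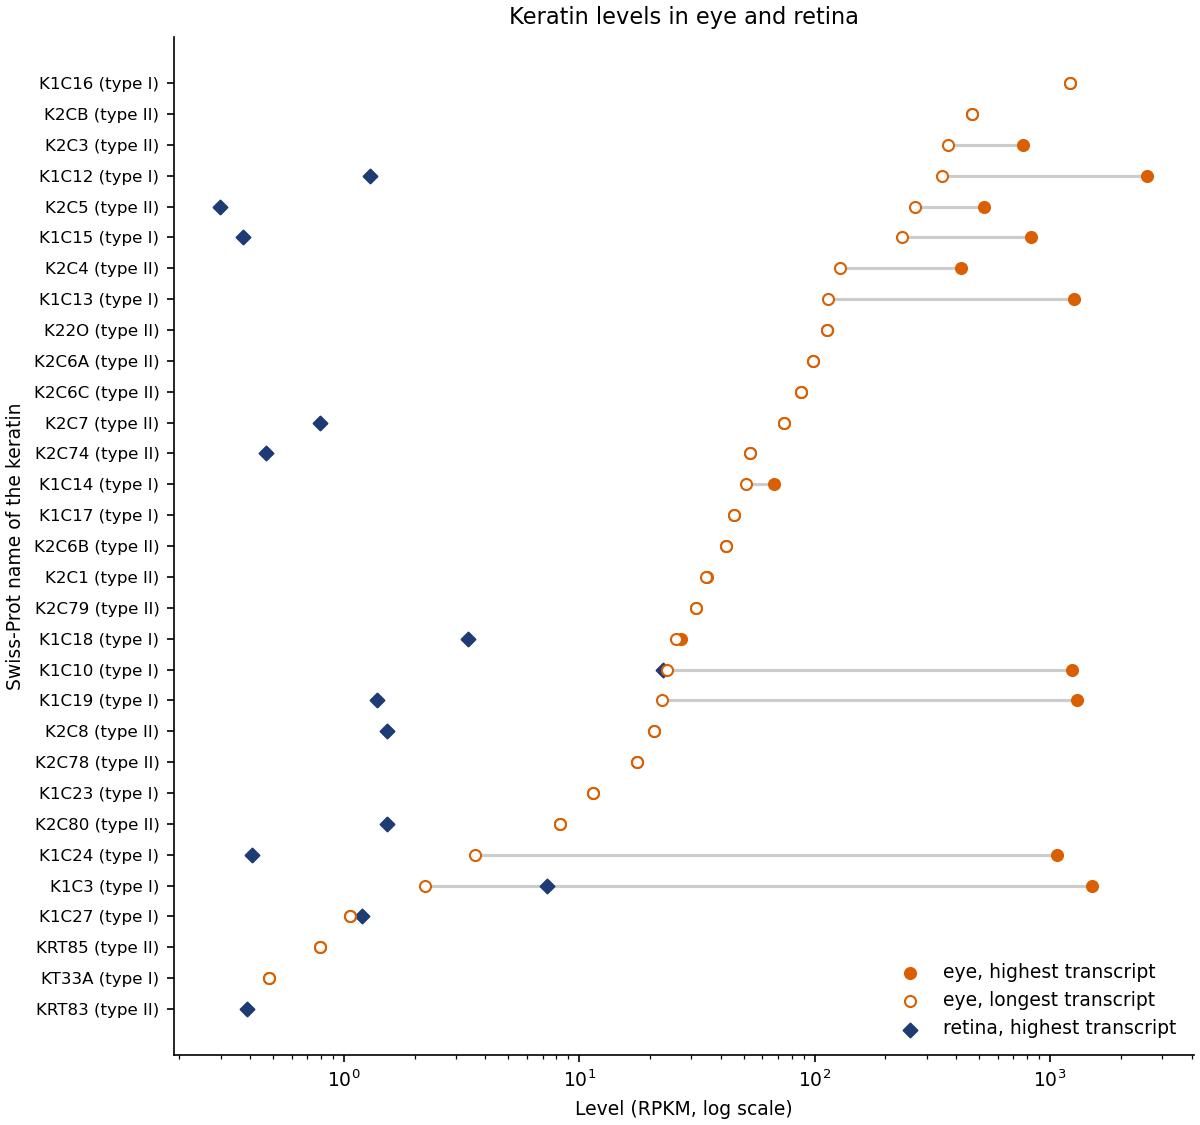
Level of each of the 31 keratin names in RPKM on a log scale, ordered by the longest transcript in eye, with filled circles for the highest eye transcript, open circles for the longest eye transcript and diamonds for the highest retina transcript. Long grey lines mark K1C24, K1C3, K1C19 and K1C10, whose highest eye transcript is under 200 bases. The diamond of K1C10 lies beside its open circle, and a filled circle is hidden where both eye measures are equal.

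The short eye transcripts split by keratin type. Besides K1C12, 7 type I names (K1C3, K1C10, K1C13, K1C15, K1C16, K1C19 and K1C24) had 75 transcripts under 200 bases, between 503 and 1508 RPKM. For each name they lay inside the range of the K1C12 transcripts over the same span of lengths, 75 of 75 in all. This range, from the lowest to the highest K1C12 transcript, is wide, and other short eye transcripts inside it were not counted. Over the span of the K1C16 transcripts, for example, 678 K1C12 transcripts ran from 424 to 1619 RPKM, with a median of 1213 against 1018 for K1C16. Of the 40 short transcripts of K2C3, K2C4, K2C5 and K2CB, between 12.2 and 465 RPKM, 0 lay inside the K1C12 range over their own spans of lengths. Median similarity to the named protein was 95% for K1C12, 97% for K1C3, K1C13 and K1C16, 95% for K1C19 and 71% for K1C10. Type I keratins share much of their rod sequence, and whether these 75 fragments come from the named genes or from a relative was not tested.

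**Figure D3:**
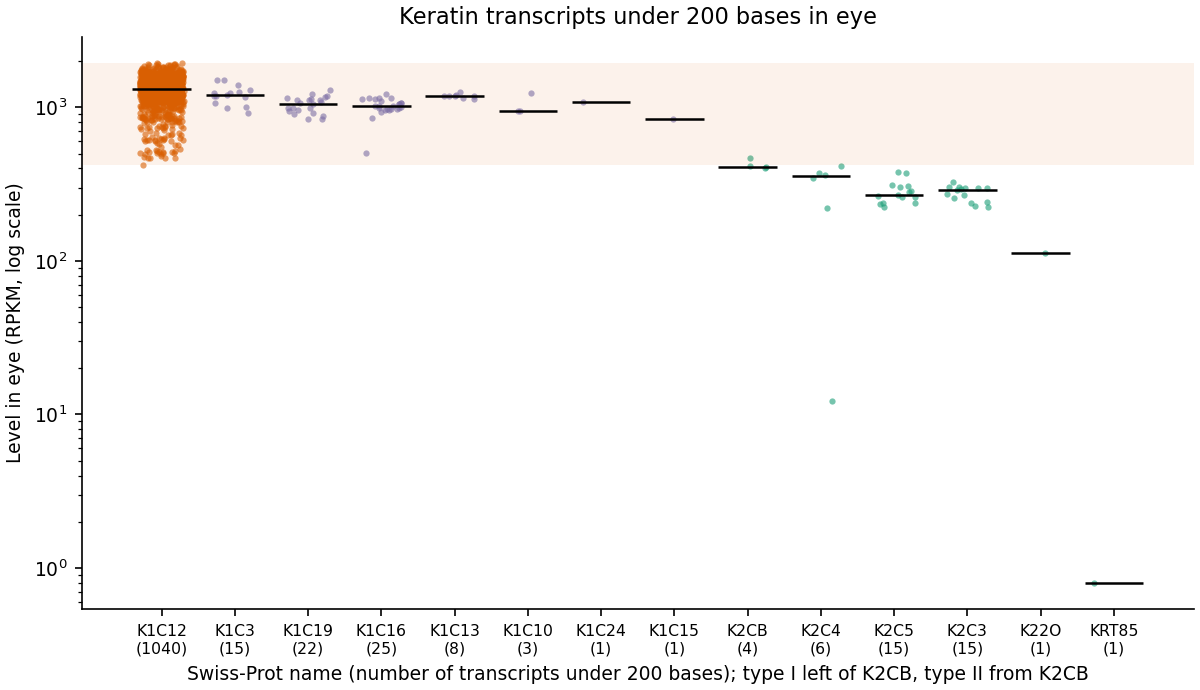
Levels in RPKM (log scale) of the eye keratin transcripts under 200 bases by Swiss-Prot name, 1 point each, with a black line at the median and a band over the range of K1C12. The 7 other type I names fall in the band, K2C3, K2C4 and K2C5 lie under it, and K2CB, up to 465 RPKM, reaches its lower edge, though K1C12 transcripts over the span of its lengths start at 525 RPKM.

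Type I and type II partners came closer together on long transcripts. Of 8 pairs, 2 were within 3-fold on the highest eye transcripts, with a median ratio of the larger to the smaller partner of 5.57, and 5 were within 3-fold on the longest, with a median of 1.82. On the longest transcripts K2C3 and K1C12 differed by 1.06 times, K2C4 and K1C13 by 1.13 times, K2C8 and K1C18 by 1.24 times, K2C1 and K1C10 by 1.46 times, and K2C6A and K1C17 by 2.18 times. K2C7 exceeded K1C19 by 3.32 times and K2C5 exceeded K1C14 by 5.21 times. The pair of K2C6A and K1C16 differed by 12.3 times by both measures, since K1C16 had short transcripts only. Type I partners were the higher ones in 6 of 8 pairs on the highest transcripts and in 2 of 8 on the longest. Among the 10 highest names, 8 were of type I on the highest transcripts and 4 on the longest.

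**Figure D4:**
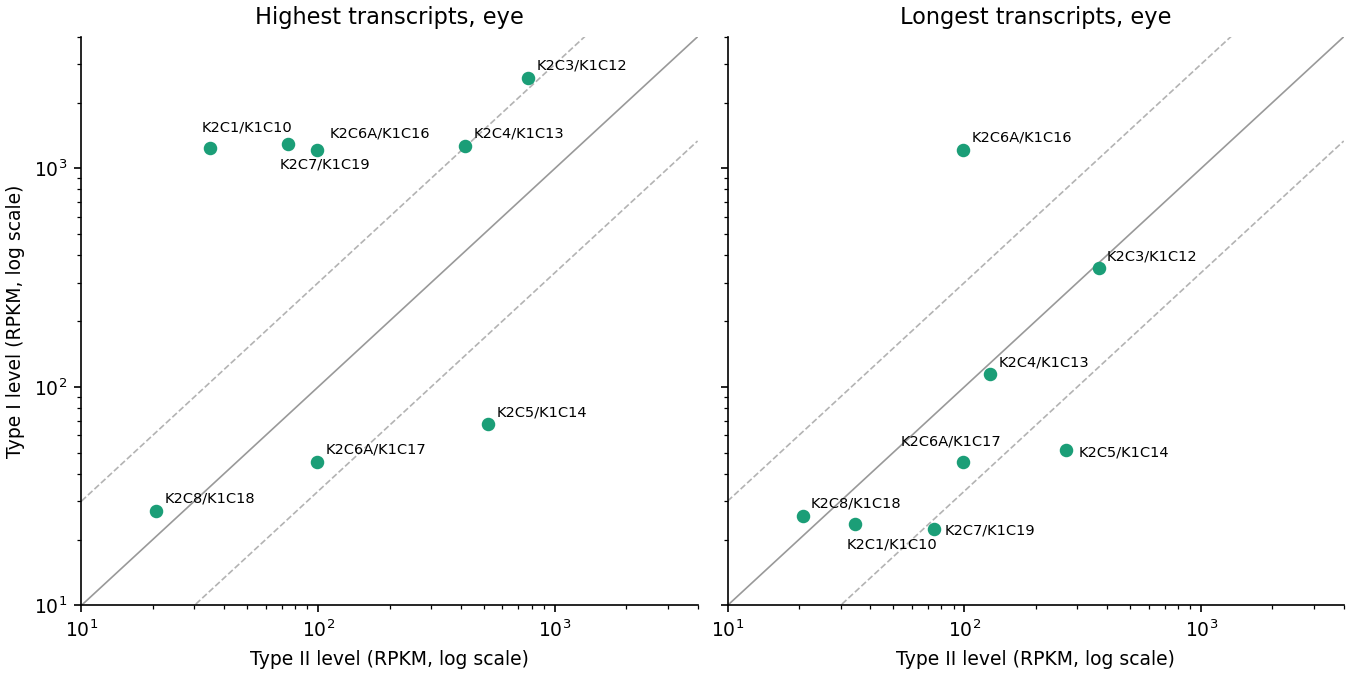
Level of the type I partner against that of the type II partner in eye, in RPKM on log scales, for the highest (left) and the longest (right) transcripts of 8 pairs. The solid line marks equal levels and the dashed lines 3-fold, with 2 pairs inside them on the left and 5 on the right.

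Compared directly, 12 of the 13 names in both tables were at least 2-fold higher in eye on the highest transcripts and 0 at least 2-fold higher in retina. A difference is the log2 of the eye level minus that of the retina level, each after adding 1 RPKM, which understates the differences of low names. Of 13383 proteins compared, 11.8% passed 2-fold toward eye and 3.6% toward retina. The median difference over the keratins was 5.71, the value of K1C10, against -0.0035 over all proteins. Scaling both tables to an equal total moved the median of all proteins to -0.25 and the shares to 9.11% and 6.85%, and left the keratin counts at 12 and 0. With best-matching transcripts 11 keratins were higher in eye and 0 in retina (11.8% and 3.12% of all proteins), and with transcripts of 200 bases or more 10 and 1 (11.7% and 3.54%). Of the 13 names, 5 were under 1 RPKM in retina and passed the filter of 1 RPKM through eye alone, so they had to be higher there, and their count supports nothing by itself.

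On the longest transcripts, 10 of 13 names exceeded their retina level 2-fold in eye and 1 did the reverse. The shares of all proteins were 13.5% and 2.88%, and the keratin median was 3.11. Of the 10, K2C5, K1C15, K2C7, K2C74 and K1C24 were under 1 RPKM in retina. They passed the filter through eye alone, so they could only point to eye. The difference was 7.69 for K2C5, 7.43 for K1C15 and 7.25 for K1C12, the highest of the family. That of K2C5 rests on the 650-base eye transcript with 61% similarity, and on best-matching transcripts it was 8.41. The difference was 5.39 for K2C7, 5.21 for K2C74, 3.30 for K1C19 and 3.11 for K2C8. The smaller ones were 2.76 for K1C18, 1.88 for K2C80 and 1.70 for K1C24. Within 2-fold were K1C10, at 0.44, and K1C27, at -0.09, whose eye to retina ratio of 0.888 had a counting interval from 0.750 to 1.05. K1C3 changed side, from 7.51 on the highest to -1.37 on the longest transcripts.

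**Figure D5:**
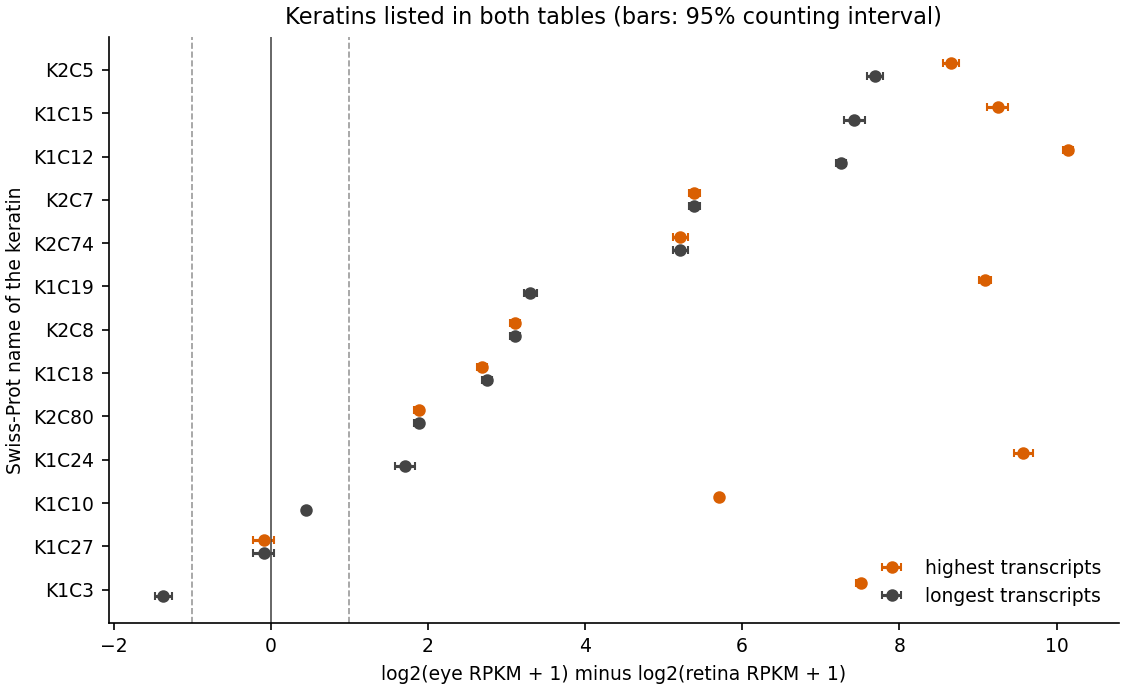
Difference between eye and retina of the 13 keratin names in both tables, in log2 units after adding 1 RPKM, on the highest and the longest transcripts, with 95% counting intervals as bars and dashed lines at 2-fold. K1C12, K1C15 and K2C5 stay above 7 by both measures, K1C10 and K1C27 lie within 2-fold on the longest, and K1C3 changes side.

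Proteins that anchor or link keratin filaments differed by less. Of 14 listed, all were in eye and 13 in retina, and 9 of these 13 exceeded retina 2-fold in eye while 0 did the reverse (11.8% and 3.6% of all proteins), with a median difference of 1.19. Of the 9, DESP, EVPL and PKP3 were under 1 RPKM in retina and passed the filter through eye alone, so 3 could only point to eye. DESP (desmoplakin), which ties keratin filaments to desmosomes, reached 12.7 RPKM in eye against 0.412 in retina. PLEC (plectin), a linker of filaments to hemidesmosomes, was at 13.8 and 5.48 RPKM, and PLAK (plakoglobin), a desmosome protein, was higher in eye by 1.06 on the log2 scale. COHA1, the hemidesmosome collagen XVII, was at 22.7 and 7.87 RPKM. DYST (dystonin), which neurons also make, had 44.1 RPKM in eye against 58.4 in retina. PKP1, a desmosome plaque protein, was in the eye table only, at 12.3 RPKM. In eye all of these levels were below those of K1C12, K2C3 and K2C5.

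Epithelial markers other than keratins differed between the tissues to unequal degrees. All 15 were in eye, between 2.53 and 565 RPKM with a sum of 1081, and 8 were in retina, between 0.451 and 5.49 RPKM with a sum of 20.7. Of these 8, 5 exceeded their retina level 2-fold in eye and 0 did the reverse (11.8% and 3.6% of all proteins), with a median difference of 2.40. ESRP2 and SPIT1, 2 of the 5, were under 1 RPKM in retina and could only point to eye. EPCAM, an adhesion protein of epithelial cells, was at 2.53 and 2.52 RPKM, and the differences of ST14 and CADH1, the epithelial cadherin, were 0.37 and 0.90. AL3A1, the abundant aldehyde dehydrogenase of cornea, was at 565 RPKM on 342 bases and 107 RPKM on 1558 bases in eye. AQP5, a water channel of corneal epithelium, had 216 RPKM in eye against 2.98 in retina. AQP3, a water and glycerol channel, was at 81.3 RPKM in eye. AL3A1, AQP3, CLD4, CLD7, TACD2, ESRP1 and LYPD3, 7 of the 15, had no transcript in the retina table (8.75% of all eye names had none). Lens markers, at a sum of 34.5 RPKM over 6 of 11 in retina against 12006 over 10 in eye, and pigment cell markers, at 30.9 over 6 of 6 against 560 over 6, were also present in retina. Of the lens sum in retina, 24.1 RPKM belonged to CRYAB and 7.48 RPKM to CRBB3. The highest lens value in eye was CRBB2, at 2743 RPKM on 402 bases but 795 RPKM on its longest transcript. Blood markers had a sum of 257 RPKM over 3 of 4 in retina against 8873 over 3 in eye. Skeletal muscle markers had 604 over 4 of 7 against 2073 over 7, with 601 RPKM of the retina sum on a 135-base transcript of ACTS, a skeletal muscle actin. All 7 photoreceptor markers were in both tables, between 62.7 and 1541 RPKM in eye and between 80.2 and 2385 in retina. The part of cells from outside the retina in its low keratin levels was not tested.

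Terminal differentiation genes of the epidermis were low in both tables. Of 19 listed genes of the cornified envelope, the protein shell of dead skin cells, 12 were in eye, all between 0.514 and 4.32 RPKM, and 7 in retina, up to 2.64 RPKM. In eye only were 8 of these genes and in retina only 3, against 8.75% of all eye names and 4.46% of all retina names. LORI (loricrin), INVO (involucrin), TRHY and CALL5 were in neither table. SPR1B, a small proline-rich envelope protein, was the highest in eye, at 4.32 RPKM, followed by SPR1A at 2.40, both in eye only. FILA2 had 1.83 RPKM in eye against 2.64 in retina, and SBSN had 1.68 against 0.803 RPKM. Of the 2 that could be compared, neither differed 2-fold. The keratins of the upper epidermis, K2C1 and K1C10, were thus above these genes in eye.

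Transcription factors known from surface epithelia also differed unevenly. All 15 were in eye and 9 in retina, of which 5 exceeded their retina level 2-fold in eye and 0 did the reverse (11.8% and 3.6% of all proteins), with a median difference of 1.93. Of the 5, 4 were under 1 RPKM in retina and could only point to eye, ELF3 and KLF4 among them. ELF3, an epithelial ETS factor, reached 29.4 RPKM in eye against 0.942 in retina, and KLF4, a factor of epithelial differentiation, had 17.2 against 0.748 RPKM. P63, the regulator of basal epithelial cells, was 1 of 6 in eye only (8.75% of all eye names were), at 3.41 RPKM. PAX6, which cornea, lens and retina all need, had 136 RPKM in eye against 162 in retina on transcripts of the same length, 1644 bases. Its longest transcripts, of 2180 and 1959 bases, were at 7.26 and 137 RPKM. AP2B was at 10.4 and 14.5 RPKM and AP2A at 9.06 and 12.7 RPKM, both made by amacrine cells as well.

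Intermediate filament genes other than keratins ran from low to high in both tissues. All 16 listed were in eye and 15 in retina, of which 7 exceeded their retina level 2-fold in eye and 2 did the reverse (11.8% and 3.6% of all proteins), with a median difference of 0.49. NEST and SYNCI, 2 of the 7, were under 1 RPKM in retina and could only point to eye. On the longest transcripts the counts were 5 and 0 of 14 (13.5% and 2.88% of all proteins). With summed transcripts they were 7 and 4 of 15. Under that setting 2296 of 13696 proteins passed 2-fold toward eye, and the share toward retina is not given here. VIME (vimentin), the filament of mesenchyme, lens and Mueller glia, reached 678 RPKM in eye on 276 bases against 292 in retina, above every keratin of retina, and on the longest transcripts 504 against 292. The lens beaded filament protein BFSP1 was at 194 and 2.35 RPKM. The neurofilaments NFL and NFH, of ganglion cell axons, were at 131 and 217 and at 60.2 and 121 RPKM, and on the longest transcripts NFH was at 25.4 and 33.5 RPKM, a difference of -0.39 that is within 2-fold. In retina 8 of these genes were above 10 RPKM (VIME, GFAP, PERI, AINX, NFL, NFM, NFH and LMNB2), against 1 keratin, K1C10.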

How the data were processed

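RNA of whole eye and retina was sequenced, and the deposited tables give 1 RPKM value per transcript and tissue, from 2 eye and 3 retina libraries. The unit is inferred from the deposited values, since the file headers name them expression values. The submitters' processing notes name Bowtie, without a version; no label or header names an assembler, counter or genome build. Each transcript carries, per the file headers, its best Swiss-Prot hit, with an E-value, a score and a similarity in percent. No per-library values were used, and tissues were compared without a test.

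The level of a name is its highest transcript. Differences used log2 values with a pseudocount of 1, over the names that both tables list and that reach 1 RPKM in eye or retina, and 2-fold was the threshold. Intervals of single levels are exact Poisson (scipy 1.17.1, pandas 2.3.3, Python 3.11.15). Those of ratios use a normal approximation on the log scale, with the reads of both transcripts taken as Poisson counts. Those of log2 differences, drawn as bars, are also approximate and are symmetric about the difference. The calculation was tested on simulated data, with both sides drawn as independent Poisson reads from the same retina transcripts. It could not meet transcripts that differ between the tissues or reads counted on more than 1 transcript. Alternatives changed the value per name, transcript length, hit quality and species, scaling, pseudocount and filter, and the longest transcript was added after seeing the data. Keratins at 10 RPKM or more in either tissue are named, plus pair members and, in other lists, up to 4 members of highest mean level; DESP, PKP1, KLF4, P63 and the remaining genes named by presence, direction or level were chosen after their values were seen, as were the values given for keratins under 10 RPKM. The members and lists were chosen with earlier results of these data known.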

Additional observations from a re-analysis of the deposited data

How the results depend on the processing

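The count of 12 keratins at least 2-fold higher in eye became 6 of 9 names with transcripts of 500 bases or more. Under that setting 1385 of 12857 proteins passed 2-fold toward eye. The count higher in retina went from 0 to 1 with transcripts of 200 bases or more, with 500 bases or more and with the longest transcript, because K1C3 turned to -1.37 under each of these 3. The share of all proteins toward retina was 3.54% with 200 bases or more and 2.88% with the longest transcript. For 500 bases or more it is not given here. Of the 5 highest eye names, 1 was shared with transcripts of 200 bases or more, of 500 bases or more, the best-matching and the longest transcript, 2 with E-values of 1e-20 or lower and 3 with the length-weighted mean. With transcripts of 200 bases or more the highest were K1C12, K2C3, K2C5, K1C15 and K2C4. All proteins higher in eye went from 1577 to 815 with a pseudocount of 5 and to 921 with a filter at 10 RPKM. Over the alternatives run, the difference of K1C12 ranged from 7.25 to 19.17, that of K2C5 from 6.64 to 12.46, that of K2C8 from 1.98 to 3.68 and that of K1C10 from 0.060 to 6.25. Of the differences of single keratins, 97 stayed within the counting interval, 74 left it with the same sign and 3 changed sign. Part of the 97 could not change, since a filter leaves each level as it is. K2C8, K2C80, K2C74 and K1C27 had 1 transcript per table, which gives the same value by every way of taking a level per name. The tally is therefore no measure of stability. No paired analysis was possible because the tables hold 1 value per tissue and their columns carry no replicate. Leaving out each library and the replicate block were not run for the same reason. If reads were counted on several transcripts, the counting intervals are too narrow and levels may be too high, by amounts that were not measured. Ratios between the tissues may be affected too. Reads over all transcripts came to 5077626712 against a total of 264219334 in eye, and to 3745035688 against 355988270 in retina.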

Other observations

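Among the 1040 K1C12 transcripts under 200 bases in eye, level and length rose together across transcripts (Spearman's rho 0.71), which share one library pool and one gene name. The median level was 1097 RPKM at 103 bases, 1425 RPKM at 123 bases and 1881 RPKM at 147 bases. Of these transcripts, 889 were at 1000 RPKM or more and 8 under 500 RPKM. Nearly all lengths, 99.7%, lay at 103 bases plus a multiple of 4, against 94.0% of all short eye transcripts with a hit. The best K1C12 hit was the rabbit protein for 549 transcripts, the human for 240, the rat for 165 and the mouse for 90.

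Many transcripts per name were not particular to K1C12. In eye 133 names (0.870%) had 20 transcripts or more and 50 had 100 or more, and of the 70 names at 1000 RPKM or more, 48 had 20 or more. Keratins with 20 or more were K1C12, K1C19, K1C16 and K2C5.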
